A study of Arabidopsis thaliana with 12 samples.

Results

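The 41 histone loci described here are a listed set: 5 loci for H3.1, 3 for H3.3, the centromere histone CENH3, 8 for H4, 4 for canonical H2A, 2 for H2A.X, 4 for H2A.Z, 3 for H2A.W, 10 for H2B and 1 for a divergent H2B. They were taken from 37138 loci by locus code, and the estimated reads of all transcripts of a locus were summed. H3.1, H4, canonical H2A and H2B make up the 27 replication-type loci, and the remaining 14 are called variant loci here. The RNA is from the outermost 0.2 cm of Arabidopsis thaliana roots. There were 4 groups of 3 biological replicates: wild-type Col-0 and the triple mutant scl5 scl21 pat1, mutated in 3 genes for GRAS-domain proteins, each on control 1/2 MS medium or on the same medium with 0.5 µg/ml bleomycin for 24 h. About 100 seeds per sample were sown on nylon mesh, and the seedlings were moved to the test plates 7 days after sowing. Bleomycin is a drug that breaks DNA strands, so the comparison with control asks how histone transcripts differ in root tips under DNA damage, and the comparison of genotypes asks whether the mutated genes alter this.

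Histones H2A, H2B, H3 and H4 are the proteins around which DNA is wrapped in nucleosomes. Replication-type histones are made mainly in S phase, when newly copied DNA has to be packed, and plant genes for them are active in dividing cells such as those of the root meristem. Variant histones are deposited outside replication or at particular places: H3.3 at transcribed genes, CENH3 at centromeres, H2A.Z at gene starts and in gene bodies, H2A.W in heterochromatin, and H2A.X throughout chromatin, where it is phosphorylated next to DNA breaks.

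Plant replication-type histone promoters are known for short shared elements. As examples with and without them, 7 stretches are shown, and not every locus with a large change is included. Each stretch is the 250 bases before the annotated start of the locus in the RefSeq annotation of assembly TAIR10.1, written 5′ to 3′ on the strand of the gene. Searched on both strands were the octamer CGCGGATC and the hexamer ACGTCA, whose occurrences are in capitals (GATCCGCG and TGACGT on the other strand). The first group holds the octamer: the H3.1 locus AT1G09200 (chr1:2972335-2972584, minus strand), the canonical H2A loci HTA13 (chr3:7229140-7229389, plus strand) and HTA10 (chr1:18926561-18926810, plus strand) and the H4 locus AT5G59690 (chr5:24051224-24051473, plus strand).
AT1G09200: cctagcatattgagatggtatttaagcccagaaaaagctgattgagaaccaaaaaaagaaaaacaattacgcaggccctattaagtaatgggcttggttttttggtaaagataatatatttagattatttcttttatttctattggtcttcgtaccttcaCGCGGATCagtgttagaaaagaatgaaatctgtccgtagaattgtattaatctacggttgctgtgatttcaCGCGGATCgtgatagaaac
HTA13: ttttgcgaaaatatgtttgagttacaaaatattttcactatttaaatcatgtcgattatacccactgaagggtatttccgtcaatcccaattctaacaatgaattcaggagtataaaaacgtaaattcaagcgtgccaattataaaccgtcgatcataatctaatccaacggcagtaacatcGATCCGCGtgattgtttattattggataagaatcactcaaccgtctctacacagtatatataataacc
HTA10: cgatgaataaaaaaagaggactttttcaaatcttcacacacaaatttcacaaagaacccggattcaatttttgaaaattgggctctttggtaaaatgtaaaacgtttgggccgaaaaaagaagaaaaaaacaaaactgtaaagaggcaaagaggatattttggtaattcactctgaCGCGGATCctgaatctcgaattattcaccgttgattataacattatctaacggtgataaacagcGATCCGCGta
AT5G59690: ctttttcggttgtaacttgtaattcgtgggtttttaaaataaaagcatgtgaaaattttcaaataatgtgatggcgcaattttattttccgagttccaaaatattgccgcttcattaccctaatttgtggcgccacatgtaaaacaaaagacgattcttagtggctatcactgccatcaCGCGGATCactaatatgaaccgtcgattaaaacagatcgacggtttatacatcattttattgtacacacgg
The second group holds the hexamer: the H2B loci HTB9 (chr3:16898014-16898263, minus strand) and AT2G28720 (chr2:12326558-12326807, plus strand).
HTB9: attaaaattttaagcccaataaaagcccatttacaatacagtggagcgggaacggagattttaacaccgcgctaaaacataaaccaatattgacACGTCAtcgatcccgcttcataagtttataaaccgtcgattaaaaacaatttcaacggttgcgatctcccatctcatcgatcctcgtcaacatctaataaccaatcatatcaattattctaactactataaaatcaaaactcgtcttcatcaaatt
AT2G28720: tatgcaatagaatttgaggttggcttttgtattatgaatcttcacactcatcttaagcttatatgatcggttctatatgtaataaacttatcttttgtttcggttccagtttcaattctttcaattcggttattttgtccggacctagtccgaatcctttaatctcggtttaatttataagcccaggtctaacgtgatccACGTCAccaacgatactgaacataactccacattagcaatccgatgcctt
Neither element is in the stretch before the H2A.X locus HTA3 (chr1:20415288-20415537, minus strand).
HTA3: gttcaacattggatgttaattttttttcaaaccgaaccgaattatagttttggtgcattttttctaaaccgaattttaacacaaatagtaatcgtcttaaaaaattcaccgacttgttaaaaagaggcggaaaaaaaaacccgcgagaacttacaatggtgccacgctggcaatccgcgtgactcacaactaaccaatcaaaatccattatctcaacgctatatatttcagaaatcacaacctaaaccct
The octamer was in 9 of the 41 stretches, in 3 of 5 for H3.1, 2 of 4 for canonical H2A, 2 of 8 for H4, 1 of 3 for H3.3, 1 of 3 for H2A.W and 0 of 10 for H2B. Among the same stretches of 27402 other protein-coding genes, 28 held it (0.102%). The hexamer was in 11 of 41, and 8 of these were H2B loci (8 of 10), against 7.66% of the other genes. The only stretch with both elements belonged to the H3.1 locus AT5G10400, where they did not overlap. The E2F-type octamers TTTCCCGC, TTTGGCGC, TTTCGCGC and TTTGCCGC were in 3 of 41 (1.4% of other genes), and the pentamer AACGG was in 23 of 41 (20.5%). The element known for the damage regulator SOG1, CTT and AAG with 7 bases between them, was in 2 of 41, the H4 loci HIS4 and AT3G53730 (9.71% of other genes). Overlaps of these last 3 kinds with the other elements were not counted. The matches describe letters in a window and were not tied to binding by any data here.

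The 12 libraries held 36.3 to 40.9 M reads each, and the 41 loci took 0.341% to 0.49% of them. Levels below are read counts scaled to library size by TMM, in CPM (counts scaled to a fixed library size), and levels of different genes are compared only in TPM, which also corrects for length. SCL5 was at 34.8 to 44.1 CPM and SCL21 at 9.6 to 14.8 CPM in the Col-0 libraries, against at most 0.049 CPM and 0 CPM in the triple mutant. PAT1 was at 25.5 to 43.3 CPM in Col-0 and still at 9.34 to 16.9 CPM in the triple mutant. Triple mutant control 3 stood apart in that 381 loci had 0 reads there and at least 10 reads in every other library. The same count was at most 35 for any other library. Values without it are given where they change a count.

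Per length, the root tips held histone transcripts at widely different levels, and 28 of the 41 loci averaged above 100 TPM over the 12 libraries. The highest were the H3.3 loci AT5G10980 (mean 498 TPM) and AT4G40040 (450.2 TPM), the H2B locus HTB9 (435 TPM) and the H3.1 locus AT5G65360 (393 TPM). AT5G59690 led the H4 loci (366 TPM), HTA6 the H2A.W loci (344 TPM), HTA10 the canonical H2A loci (295 TPM), HTA9 the H2A.Z loci (258 TPM) and HTA3 the H2A.X loci (169 TPM). CENH3 averaged 21.8 TPM. Over the libraries, the ranges of neighbouring loci in this order overlapped, except for AT3G53650 (32.8 to 69.2 TPM) and the next lower, CENH3 (16.7 to 29.6 TPM).

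**Figure D1:**
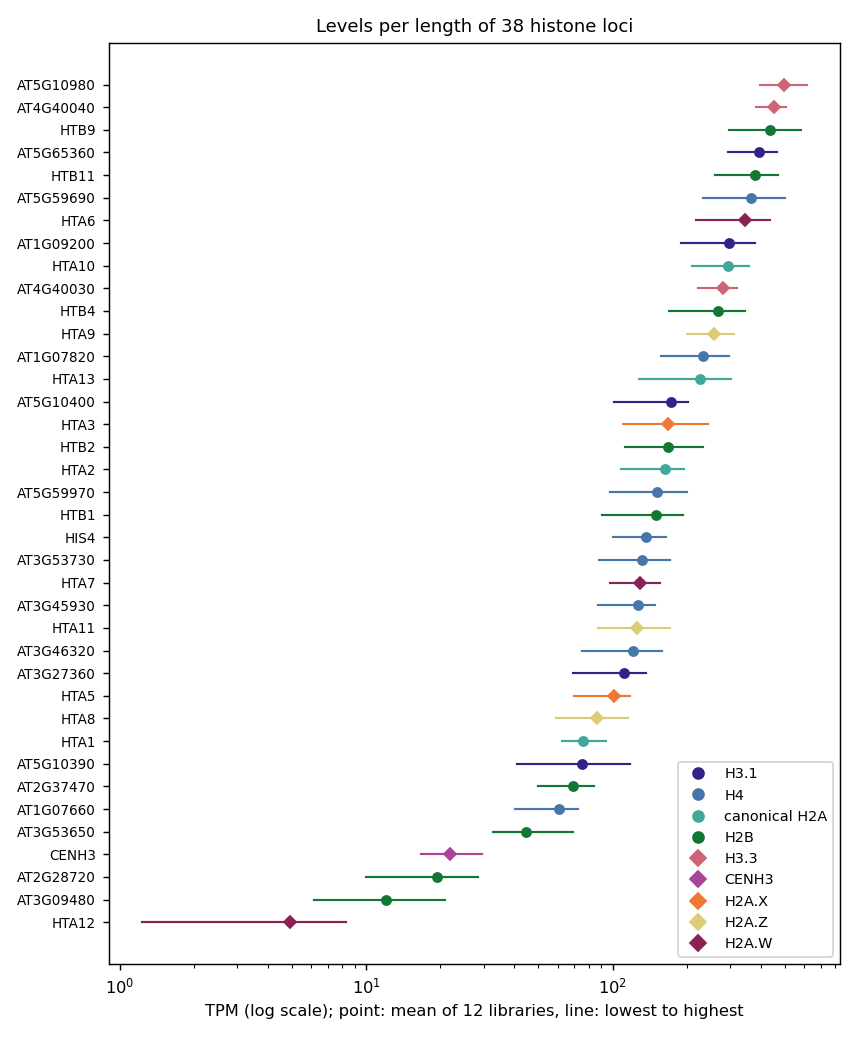
Mean TPM of 38 histone loci over the 12 libraries (points, log axis), with lines from the lowest to the highest library; circles are replication-type loci, diamonds are variant loci, and colours give the class. AT5G10980 leads at 498 TPM, HTA12 is lowest at 4.91 TPM, and 3 loci with a mean under 1.5 TPM are not drawn.

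After bleomycin, summed histone transcripts in CPM were lower in both genotypes, and the replication-type sum was lower by more than the variant sum. The variant classes differed among themselves. Averaged over both genotypes, the summed CPM of CENH3 (log2 difference -0.50), H2A.Z (-0.43) and H2A.W (-0.38) was lower by more than that of H3.1 (-0.31) and canonical H2A (-0.32), while the difference was -0.11 for H3.3 and 0.07 for H2A.X. The 41 loci together gave 4560, 4511 and 4714 CPM in Col-0 control and 3449, 3442 and 4256 CPM in Col-0 bleomycin, and 4814, 4747 and 4893 CPM in triple mutant control and 4050, 3485 and 4137 CPM in triple mutant bleomycin. In CPM, all 6 bleomycin libraries lay below all 6 controls. The replication-type sum dropped by 23.9% in Col-0 and by 23.0% in the triple mutant on the scale of mean log2 CPM. The variant sum dropped by 11.8% in Col-0 and by 13.5% in the triple mutant. For both sums in CPM the bleomycin libraries of a genotype lay below its controls. In TPM they overlapped for the sum of all loci, the replication-type sum and the variant sum. Over all loci, the bleomycin libraries numbered 3 reached 7912 TPM in Col-0 and 7673 TPM in the triple mutant, against lowest controls of 7505 and 7075 TPM. The log2 difference of the variant sum was -0.12 in Col-0 and -0.11 in the triple mutant in TPM, and -0.18 and -0.21 in CPM. In bulk samples, fewer cells of a type and less RNA per cell cannot be told apart.

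The ratio of replication-type to variant reads within a library, which does not depend on scaling, was 1.79, 1.78 and 1.75 in the Col-0 controls and 1.51, 1.44 and 1.64 after bleomycin. In the triple mutant it was 1.76, 1.72 and 1.73 in control and 1.61, 1.40 and 1.64 in bleomycin. Every bleomycin library lay below every control library in both genotypes. The variant sum leans on H3.3, which averaged 859 CPM of the 1656 CPM in Col-0 control and was among the classes that moved least. As CENH3, H2A.Z and H2A.W were lower by more than H3.1, the ratio does not describe every variant class. The mean log2 ratio differed by -0.21 in Col-0 and by -0.17 in the triple mutant, against an SD between replicates of 0.077, and the genotypes differed in this by 0.05. Without triple mutant bleomycin 2, which had the lowest ratio, the difference in the triple mutant was -0.10. No test was made on sums or ratios, because the loci were chosen as a group. The bleomycin libraries numbered 3 had the highest histone sums of their groups.

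**Figure D2:**
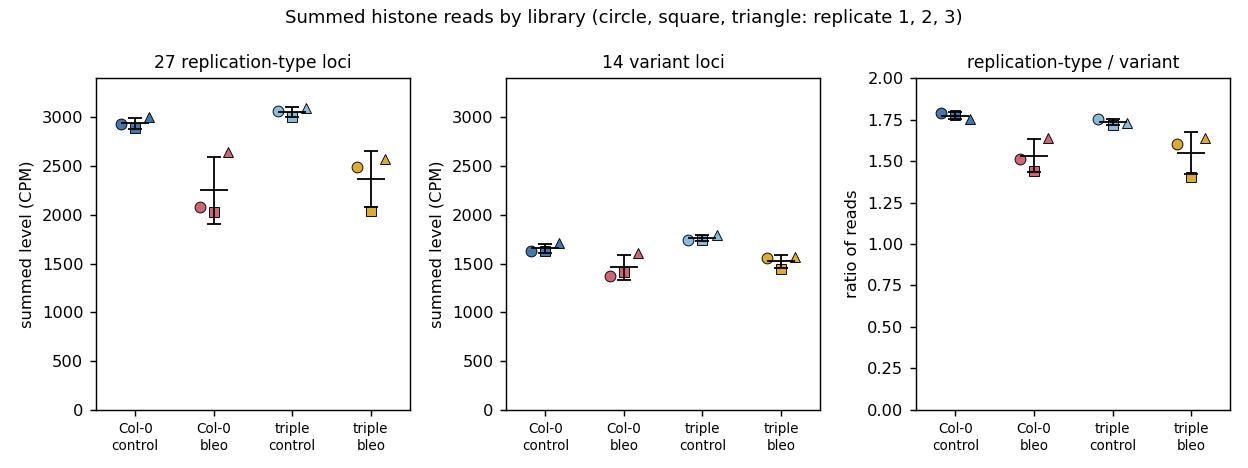
Summed level of the 27 replication-type and of the 14 variant loci (CPM) and their ratio of reads, by library; bars are mean ± SD of the 3 libraries of a group. The replication-type sums run from 2887 to 3101 CPM in the controls and from 2033 to 2645 CPM after bleomycin, and the ratio is below every control in all 6 bleomycin libraries.

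Gene by gene, 39 of the 41 loci had enough reads to be tested, and a gene is called where its adjusted p in edgeR's quasi-likelihood test is under 0.05. Averaged over both genotypes, 25 of the 39 loci fell after bleomycin and 2 rose. Those that rose were the H2A.X locus HTA3 and the H2B locus AT2G28720. Of all 21561 genes tested, 11.1% were called lower and 12.9% higher (24.0% in either direction), against 64.1% of the tested histone loci called lower. The median log2 fold change of the histone loci was -0.38, and that of all genes was 0.02. In 18 loci all bleomycin libraries lay below all controls (5.65% of all genes), and in 2 they lay above (6.22%). By type, 18 of 27 replication-type loci fell and 1 rose, and of the 12 variant loci tested 7 fell and 1 rose, with medians of -0.40 and -0.33.

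Within a single genotype, where 3 libraries face 3, fewer loci passed. In Col-0, 8 were called (6.75% of all genes): 7 fell (AT1G07820, AT5G59690 and AT5G59970 of H4, HTA13, HTA7, HTB1 and HTB9) and AT2G28720 rose. The background was 2.46% of all genes called lower and 4.29% higher. Median log2 fold changes were -0.37 for the histone loci and 0.01 for all genes, and 32 of 39 loci were below 0. All Col-0 bleomycin libraries lay below all Col-0 controls in 22 loci (14.7% of all genes) and above them in 2 (15.3%). In the triple mutant, 10 were called (8.01% of all genes): 9 fell (AT5G10390 of H3.1, AT1G07820, AT5G59690, HTA13, HTA8, HTA9, HTA11, HTB1 and HTB9) and AT2G28720 rose. There the background was 3.81% lower and 4.20% higher, the medians were -0.35 and 0.03, and 33 of 39 were below 0. Its libraries did not overlap in 26 loci that were lower (14.5% of all genes) and 2 that were higher (15.4%). A call in 1 genotype alone does not show a difference between them. With the replicate number as a block, 22 loci were called in Col-0 in place of 8. Of all genes, 2050 were then called higher and 1387 lower, against 925 and 530 in the main fit. Calls in 1 genotype depended on single libraries, for the histone loci and over all genes. In Col-0, 0 loci were called when its control 2, control 3 or bleomycin 1 was left out, 3 when its bleomycin 2 was and 13 when its bleomycin 3 was. In the same order, 285, 350, 468, 617 and 664 of all genes were called higher, and 71, 84, 116, 214 and 502 lower. Leaving out triple mutant control 1, control 2 or bleomycin 1, which enter through the shared spread, gave 5 each. Over all genes these gave 827, 770 and 772 higher, and 374, 372 and 394 lower. In the triple mutant, 2 were called without control 2, bleomycin 1 or bleomycin 2 of that genotype, and 6 without its control 1 or control 3. In the same order, 357, 367, 402, 703 and 536 of all genes were called higher, and 255, 143, 194, 570 and 396 lower. The main fit called 905 higher and 822 lower there.

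**Figure D3:**
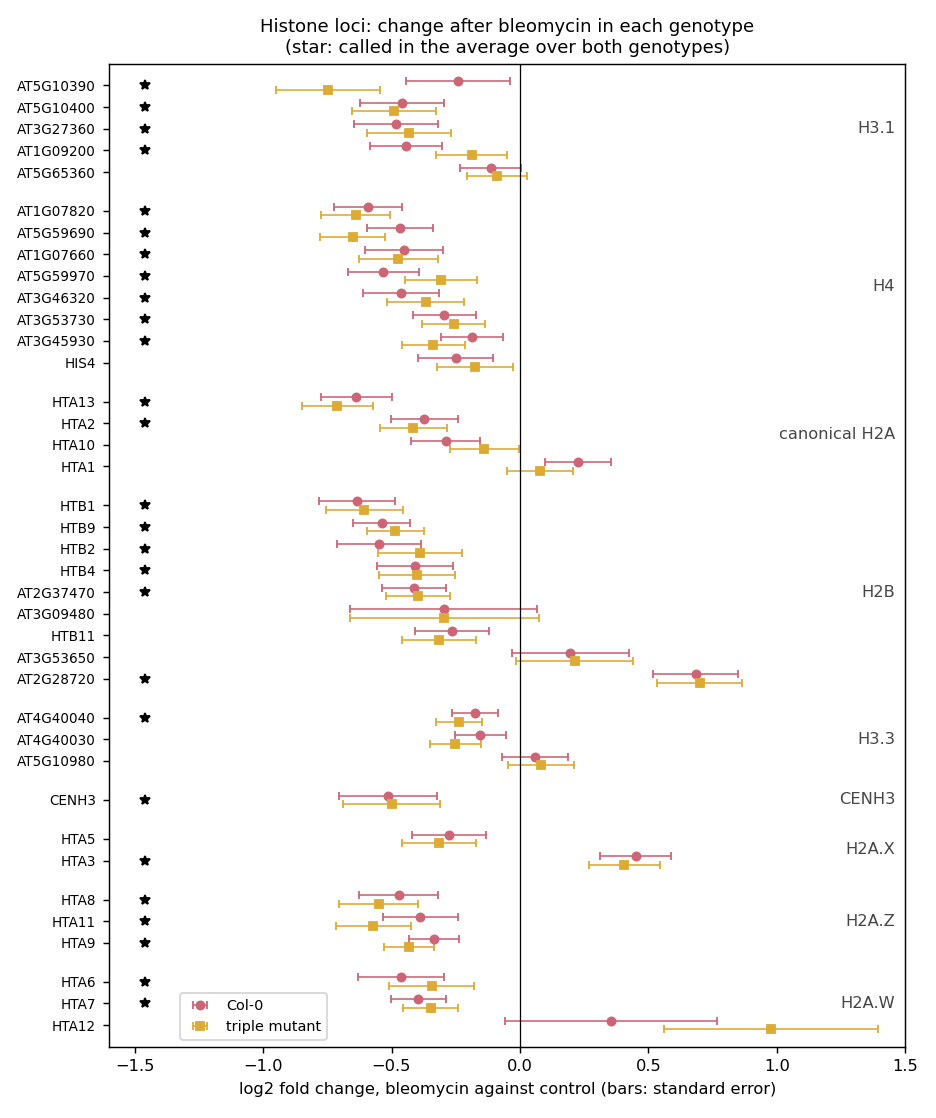
Log2 fold change after bleomycin of 38 tested histone loci in Col-0 (circles) and in the triple mutant (squares), with standard errors, grouped by class; a star marks a locus called in the average over both genotypes. Most points lie left of 0, HTA3 and AT2G28720 lie right of it in both genotypes, and AT5G02570, with a standard error above 1, is not drawn.

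Histone H3.1 is the replication-type H3, and its 5 loci are known to encode the same protein. Of these, 4 fell. AT3G27360 measured 74.1, 75.8 and 76.3 CPM in the Col-0 controls against 47.8, 44.0 and 70.3 CPM after bleomycin, and 72.1, 78.5 and 76.4 CPM in the triple mutant controls against 60.0, 46.2 and 62.0 CPM after bleomycin, 27.2% lower on average (log2 fold change -0.46, SE 0.11, adjusted p = 0.0128). AT5G10400 went from 102, 109 and 105 CPM in control to 70.7, 62.0 and 97.3 CPM with bleomycin in Col-0, and from 116, 109.8 and 109 CPM to 85.3, 62.6 and 90.0 CPM in the triple mutant, 28.0% lower (log2 fold change -0.47, SE 0.12, adjusted p = 0.0109). In both loci every bleomycin library was below every control. AT1G09200 stood at 181, 169 and 176 CPM in Col-0 control and 125, 116 and 146 CPM in Col-0 bleomycin, and at 171, 157 and 165 CPM in triple mutant control and 151, 112 and 169 CPM in triple mutant bleomycin (log2 fold change -0.32, SE 0.098, adjusted p = 0.0333). AT5G10390, the lowest of the class in reads, had 30.1, 39.2 and 33.4 CPM in control and 23.4, 28.0 and 35.6 CPM in bleomycin in Col-0, and 37.6, 45.9 and 56.3 CPM in control and 28.3, 21.5 and 33.6 CPM in bleomycin in the triple mutant (log2 fold change -0.49, SE 0.14, adjusted p = 0.0248). In AT1G09200 the triple mutant libraries overlapped, with bleomycin 3 inside the control range, and in AT5G10390 the Col-0 libraries overlapped. AT5G65360, the highest H3.1 locus per length, measured 191, 184 and 192 CPM in the Col-0 controls against 165, 157 and 201 CPM after bleomycin, and 193, 194 and 209 CPM in the triple mutant controls against 204, 161 and 194 CPM after bleomycin, with overlapping groups and no call (log2 fold change -0.10, SE 0.083, adjusted p = 0.399). AT3G27360 overlaps AT3G27380, a neighbour that was at 202 to 215 CPM in Col-0 control and 258 to 297 CPM in Col-0 bleomycin, and only 61.9% of the 31-base windows of AT3G27360 occur at no other locus. The calls of AT1G09200 and AT5G10390 rested on single libraries: with either control 2 or bleomycin 1 of Col-0 left out neither passed (adjusted p = 0.0553 and 0.0617 for AT1G09200, 0.0649 and 0.054 for AT5G10390). AT1G09200 also failed without Col-0 control 3, Col-0 bleomycin 2, triple mutant control 1 or triple mutant bleomycin 1 (0.0535 to 0.0668), and AT5G10390 without triple mutant control 3 (0.0521) or bleomycin 2 (0.0525).

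The H3.3 loci, which supply the replacement H3, moved less. AT4G40040 stood at 394, 393 and 381 CPM in Col-0 control and 316, 354 and 365 CPM in Col-0 bleomycin, and at 421, 415 and 421 CPM in triple mutant control and 351, 364 and 352 CPM in triple mutant bleomycin (log2 fold change -0.21, SE 0.063, adjusted p = 0.0324). All its bleomycin libraries were below all its controls, by 13.3% on average. AT4G40030 went from 203, 190.1 and 193 CPM in control to 183, 157 and 187 CPM with bleomycin in Col-0, and from 220.3, 215 and 222 CPM to 198, 182 and 172 CPM in the triple mutant and missed the threshold (log2 fold change -0.20, SE 0.070, adjusted p = 0.0511). AT5G10980, the most abundant histone locus per length, had 286, 233 and 303 CPM in control and 269, 267 and 319.6 CPM in bleomycin in Col-0, and 260.2, 265 and 317 CPM in control and 311, 272 and 308 CPM in bleomycin in the triple mutant. Its groups overlapped in both genotypes (log2 fold change 0.07, SE 0.091, adjusted p = 0.617), and the 95% interval of its log2 fold change was -0.13 to 0.27. The call of AT4G40040 was lost without any of Col-0 control 2 (adjusted p = 0.0704), Col-0 control 3 (0.0592), Col-0 bleomycin 1 (0.0694), triple mutant controls 1 and 2 (0.0617 and 0.057) and triple mutant bleomycin 1 and 3 (0.0786 and 0.0522), without both bleomycin libraries 3 (0.0513), and without the filter on low counts (0.0595). In TPM, the ratio of summed H3.1 to summed H3.3 was 0.893, 0.985 and 0.907 in the Col-0 controls and 0.769, 0.721 and 0.850 after bleomycin, without overlap. It was 0.901, 0.901 and 0.875 in triple mutant control and 0.830, 0.676 and 0.893 in triple mutant bleomycin, where bleomycin 3 lay inside the control range.

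CENH3, the H3 variant that marks centromeres, measured 12.3, 18.8 and 17.6 CPM in the Col-0 controls against 9.49, 11.9 and 12.7 CPM after bleomycin, and 16.1, 17.4 and 21.3 CPM in the triple mutant controls against 13.2, 11.3 and 14.4 CPM after bleomycin. The bleomycin libraries lay below the controls in the triple mutant, while in Col-0 the 12.3 CPM of control 1 lay inside the bleomycin range. Averaged over both genotypes its counts fell by 29.6% (log2 fold change -0.51, SE 0.13, adjusted p = 0.0165). Its TPM moved less, from 22.9 ± 0.33 to 19.7 ± 2.84 (SD, n = 3) in Col-0 and from 22.8 ± 6.07 to 21.9 ± 4.78 in the triple mutant. Among its transcripts the 980-base one made up 61.1% of CENH3 TPM in the Col-0 controls and 44.0% after bleomycin, and the 537-base one 20.5% and 41.6%. These shares varied widely between Col-0 control libraries, from 31.1% to 85.4% for the longer transcript and from 0% to 51.1% for the shorter. The ratio of CENH3 to H3.1 in TPM overlapped between control and bleomycin in both genotypes.

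H4 is made from 8 loci that are known to encode one protein, and 7 of the 8 fell. The largest fall was that of AT1G07820, which went from 158, 191 and 185 CPM in control to 94.6, 132 and 127 CPM with bleomycin in Col-0, and from 182, 198 and 196 CPM to 119, 115 and 136 CPM in the triple mutant, 34.7% lower on average (log2 fold change -0.62, SE 0.094, adjusted p = 0.000846). AT5G59690, the highest H4 locus per length, whose octamer is shown above, stood at 202, 207 and 196 CPM in Col-0 control and 122, 147 and 169 CPM in Col-0 bleomycin, and at 225, 223 and 262 CPM in triple mutant control and 160.2, 133 and 159 CPM in triple mutant bleomycin (log2 fold change -0.56, SE 0.091, adjusted p = 0.00117). In both loci the groups did not overlap in either genotype. AT1G07660 had 30.4, 34.1 and 32.4 CPM in control and 17.3, 27.7 and 25.9 CPM in bleomycin in Col-0, and 34.6, 34.9 and 36.0 CPM in control and 23.6, 26.7 and 25.6 CPM in bleomycin in the triple mutant (log2 fold change -0.46, SE 0.11, adjusted p = 0.00887). AT5G59970 measured 98.5, 94.0 and 113 CPM in the Col-0 controls against 63.4, 65.2 and 82.7 CPM after bleomycin, and 101, 97.3 and 94.5 CPM in the triple mutant controls against 79.1, 65.9 and 91.9 CPM after bleomycin (log2 fold change -0.42, SE 0.098, adjusted p = 0.00893). AT3G46320 went from 50.2, 53.2 and 62.7 CPM in control to 34.9, 39.1 and 46.5 CPM with bleomycin in Col-0, and from 50.6, 55.5 and 58.4 CPM to 46.7, 34.3 and 46.5 CPM in the triple mutant (log2 fold change -0.42, SE 0.11, adjusted p = 0.0134). These 3 loci also had all bleomycin libraries below all controls. AT3G53730 stood at 142, 122 and 130.2 CPM in Col-0 control and 102, 96.4 and 123 CPM in Col-0 bleomycin, and at 131, 119.7 and 123 CPM in triple mutant control and 112, 89.1 and 112 CPM in triple mutant bleomycin (log2 fold change -0.28, SE 0.087, adjusted p = 0.0349). AT3G45930 had 58.8, 55.7 and 60.8 CPM in control and 47.8, 46.5 and 59.6 CPM in bleomycin in Col-0, and 62.0, 63.5 and 69.5 CPM in control and 53.4, 44.9 and 56.1 CPM in bleomycin in the triple mutant (log2 fold change -0.26, SE 0.087, adjusted p = 0.0433). Their Col-0 groups overlapped, with bleomycin 3 inside the control range. HIS4 measured 67.5, 65.6 and 71.1 CPM in the Col-0 controls against 53.7, 47.9 and 70.0 CPM after bleomycin, and 77.6, 68.7 and 63.6 CPM in the triple mutant controls against 72.4, 56.7 and 57.0 CPM after bleomycin and was not called (log2 fold change -0.21, SE 0.10, adjusted p = 0.157).

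The sum over the 8 H4 loci, which does not depend on how shared reads were split among them, was 807, 823 and 851 CPM in Col-0 control and 536, 602 and 703 CPM in Col-0 bleomycin, and 863, 861 and 903 CPM in triple mutant control and 666, 565 and 683 CPM in triple mutant bleomycin. It dropped by 26.2% in Col-0 and by 27.4% in the triple mutant, without overlap. Coding sequences of the other H4 loci were 78.8% to 82.7% identical to that of HIS4, and the share of 31-base windows found at no other locus was 62.9% in AT1G07660, 64.7% in AT3G46320 and 67.3% in AT3G45930, whose single levels are therefore less certain. It was 75.5% in AT1G07820, the locus with the largest fall, 84.8% in AT5G59690 and 88.1% in AT5G59970. Their single levels also rest in part on how shared reads were split. AT3G45930 lost its call without any one of the libraries other than bleomycin 3 of each genotype (adjusted p = 0.055 to 0.0948). AT3G53730 lost it without controls 1 or 3 or bleomycin 1 or 2 of Col-0, triple mutant control 1 or 2, or triple mutant bleomycin 2 (0.0518 to 0.0727).

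Canonical H2A is the replication-type H2A, and 2 of its 4 loci fell. HTA13, which fell the most of all tested histone loci, stood at 114, 109 and 125 CPM in Col-0 control and 65.5, 71.8 and 86.7 CPM in Col-0 bleomycin, and at 110.2, 108 and 132 CPM in triple mutant control and 71.4, 61.0 and 81.5 CPM in triple mutant bleomycin, 37.3% lower on average (log2 fold change -0.67, SE 0.098, adjusted p = 0.000605). HTA2 went from 91.7, 99.2 and 105 CPM in control to 65.3, 76.2 and 87.0 CPM with bleomycin in Col-0, and from 107, 89.8 and 109 CPM to 81.7, 66.4 and 81.4 CPM in the triple mutant, 23.9% lower (log2 fold change -0.39, SE 0.093, adjusted p = 0.00927). In both, every bleomycin library was below every control. HTA10, the highest of the class per length, with the octamer at 2 places, had 197, 179.5 and 193 CPM in control and 153, 128 and 185 CPM in bleomycin in Col-0, and 195, 181 and 180.3 CPM in control and 179, 144 and 182 CPM in bleomycin in the triple mutant, with overlap and no call (log2 fold change -0.21, SE 0.095, adjusted p = 0.12). HTA1, known from the rat5 mutant that resists Agrobacterium transformation, measured 36.3, 38.8 and 48.2 CPM in the Col-0 controls against 45.8, 45.9 and 52.5 CPM after bleomycin, and 51.2, 41.8 and 49.4 CPM in the triple mutant controls against 53.3, 49.9 and 47.3 CPM after bleomycin. Its values overlapped (log2 fold change 0.15, SE 0.091, adjusted p = 0.242). The 4 loci summed to 439, 427 and 471 CPM in Col-0 control and 330, 322 and 411 CPM in Col-0 bleomycin.

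Of the 10 H2B loci, 5 fell, 1 rose and 4 were not called. HTB1 went from 93.2, 100.3 and 118 CPM in control to 62.7, 56.3 and 81.6 CPM with bleomycin in Col-0, and from 118, 117 and 121 CPM to 81.7, 66.0 and 86.6 CPM in the triple mutant, 34.9% lower on average (log2 fold change -0.62, SE 0.10, adjusted p = 0.00148). HTB9, the highest H2B locus per length, stood at 259, 241 and 244 CPM in Col-0 control and 163, 152 and 197 CPM in Col-0 bleomycin, and at 258, 240.3 and 238 CPM in triple mutant control and 178, 163 and 185 CPM in triple mutant bleomycin (log2 fold change -0.51, SE 0.078, adjusted p = 0.000813). Both were below all controls in every bleomycin library. HTB2 had 104, 116 and 140 CPM in control and 73.3, 69.0 and 104 CPM in bleomycin in Col-0, and 108, 121 and 116 CPM in control and 85.8, 76.7 and 101 CPM in bleomycin in the triple mutant (log2 fold change -0.47, SE 0.12, adjusted p = 0.0118). HTB4 measured 334, 306 and 294 CPM in the Col-0 controls against 225, 197 and 282 CPM after bleomycin, and 332, 340.2 and 302 CPM in the triple mutant controls against 266, 201 and 271 CPM after bleomycin (log2 fold change -0.41, SE 0.10, adjusted p = 0.014). AT2G37470 went from 57.6, 60.0 and 54.8 CPM in control to 37.8, 40.8 and 51.0 CPM with bleomycin in Col-0, and from 59.4, 60.1 and 66.0 CPM to 52.0, 42.7 and 46.2 CPM in the triple mutant (log2 fold change -0.40, SE 0.088, adjusted p = 0.0061). These 3 also showed no overlap. AT2G28720 went the other way: it stood at 10.9, 10.1 and 12.1 CPM in Col-0 control and 17.6, 16.3 and 19.4 CPM in Col-0 bleomycin, and at 8.63, 11.5 and 13.4 CPM in triple mutant control and 18.2, 17.5 and 18.7 CPM in triple mutant bleomycin. That was 61.5% higher on average (log2 fold change 0.69, SE 0.12, adjusted p = 0.00143), and all 6 bleomycin libraries were above all 6 controls. In TPM it rose from 14.9 ± 1.5 to 25.0 ± 3.64 (SD, n = 3) in Col-0, a low level beside the 528 ± 46 to 379 ± 72.3 TPM of HTB9. Nearly all of its 31-base windows (99.5%) occur nowhere else, whereas HTB9 has 60.7%.

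The 4 H2B loci without a call were HTB11, AT3G53650, AT3G09480 and AT5G02570. HTB11 ranged from 189.6 to 236 CPM in the controls and from 136 to 199 CPM after bleomycin (log2 fold change -0.29, SE 0.10, adjusted p = 0.056). AT3G53650 ranged from 22.3 to 44.7 CPM over all libraries, and AT3G09480 from 3.48 to 10.3 CPM. AT5G02570 overlaps HTA12, and none of its 31-base windows is unique to it. It was assigned 0 reads in 8 libraries and 20.7 to 46.7 in the other 4, so its fitted changes, the largest rise in Col-0 (log2 fold change 7.03, SE 3.3) and the largest fall in the triple mutant (-1.64, SE 2.2), have no firm value. The 8 H2B loci with the hexamer included 4 that fell, 1 that rose and 3 not called, and the 9 histone loci with the octamer included 7 that fell and 2 not called, beside 18 that fell among the 30 tested loci without it.

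The H2A.X loci parted. H2A.X is the H2A that carries the damage-induced phosphorylation mark. HTA3 stood at 67.6, 78.6 and 86.9 CPM in Col-0 control and 97.8, 103 and 117 CPM in Col-0 bleomycin, and at 70.1, 81.4 and 91.5 CPM in triple mutant control and 103, 95.6 and 123 CPM in triple mutant bleomycin. All 6 bleomycin libraries were above all 6 controls, by 34.5% on average (log2 fold change 0.43, SE 0.098, adjusted p = 0.00783). Within a genotype it was not called (adjusted p = 0.0676 in Col-0 and 0.0901 in the triple mutant), while DESeq2 called it in both (0.0226 and 0.0475), as did the fit with the replicate block in Col-0 (0.00528). HTA5 had 85.0, 101 and 86.9 CPM in control and 72.5, 61.3 and 91.8 CPM in bleomycin in Col-0, and 106, 103 and 97.2 CPM in control and 88.2, 70.4 and 87.4 CPM in bleomycin in the triple mutant. Its Col-0 groups overlapped, and it missed the threshold (log2 fold change -0.30, SE 0.10, adjusted p = 0.0522). The ratio of HTA3 to HTA5 in TPM was 1.236, 1.208 and 1.555 in the Col-0 controls and 2.104, 2.613 and 1.979 after bleomycin, and 1.023, 1.218 and 1.450 in triple mutant control and 1.811, 2.092 and 2.177 in triple mutant bleomycin. In every bleomycin library it was above the control range.

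Relative to canonical H2A, summed H2A.X in TPM was 0.264, 0.318 and 0.286 in the Col-0 controls and 0.423, 0.427 and 0.415 after bleomycin, and 0.286, 0.335 and 0.308 in triple mutant control and 0.407, 0.429 and 0.442 in triple mutant bleomycin, with no overlap. The mean log2 ratio was higher by 0.55 in Col-0 and 0.46 in the triple mutant, against an SD of 0.095. The sum of both H2A.X loci itself was 153, 179.7 and 174 CPM in Col-0 control and 170.3, 165 and 209 CPM in Col-0 bleomycin, with overlap. HTA3 reads are partly shared: 40.7% of its 31-base windows occur at no other locus, and the deposited count was not whole in any library. The genes that overlap it, AT1G54680 and AT1G07983, were at 0.491 to 3.12 CPM and 0 to 2.33 CPM.

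**Figure D4:**
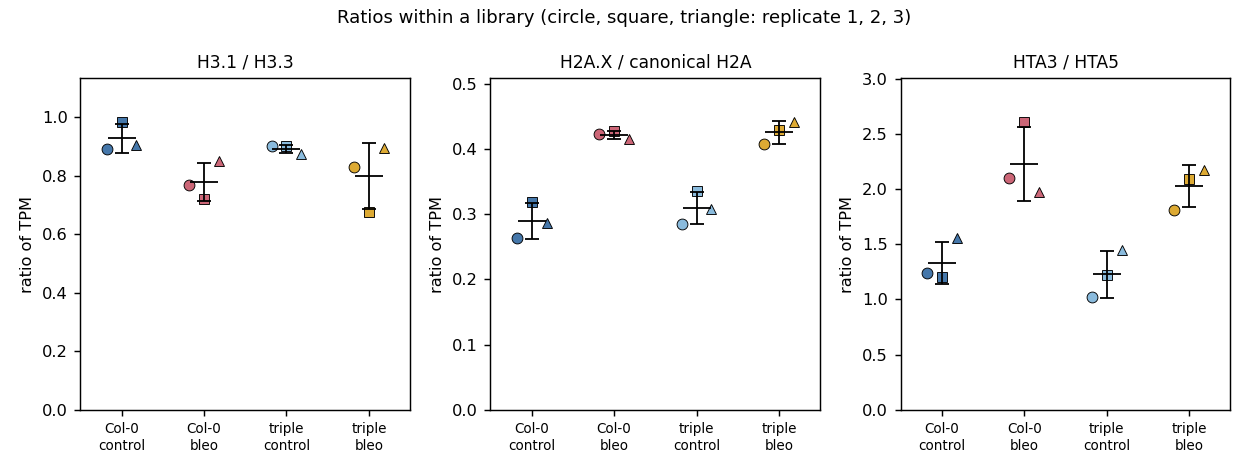
Ratios within each library, in TPM: summed H3.1 to summed H3.3, summed H2A.X to summed canonical H2A, and HTA3 to HTA5; points are libraries and bars are mean ± SD of the 3 libraries of a group. The H2A.X ratio is 0.264 to 0.335 in the controls and 0.407 to 0.442 after bleomycin, and the HTA3 to HTA5 ratio is above every control in all 6 bleomycin libraries.

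All 3 H2A.Z loci with enough reads fell. H2A.Z sits near transcription starts and affects how genes respond. HTA9, the highest per length, went from 159, 166 and 185 CPM in control to 125, 147 and 133 CPM with bleomycin in Col-0, and from 180.1, 177 and 181 CPM to 128, 137 and 135 CPM in the triple mutant, 23.3% lower (log2 fold change -0.38, SE 0.069, adjusted p = 0.00219). HTA11 measured 77.3, 90.6 and 93.1 CPM in the Col-0 controls against 50.3, 75.3 and 73.9 CPM after bleomycin, and 93.8, 93.2 and 107 CPM in the triple mutant controls against 63.3, 65.3 and 69.0 CPM after bleomycin, 28.3% lower (log2 fold change -0.48, SE 0.10, adjusted p = 0.00551). HTA8 stood at 32.2, 43.1 and 45.8 CPM in Col-0 control and 26.8, 30.2 and 30.3 CPM in Col-0 bleomycin, and at 40.2, 46.7 and 52.5 CPM in triple mutant control and 27.4, 33.7 and 34.1 CPM in triple mutant bleomycin, 29.8% lower (log2 fold change -0.51, SE 0.11, adjusted p = 0.00518). Groups did not overlap within a genotype for any of the 3. Summed H2A.Z relative to canonical H2A, in TPM, overlapped between control and bleomycin in both genotypes. HTA4 had 0 to 9 reads per library, with 7 and 9 in Col-0 bleomycin 1 and 2, and was not tested.

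H2A.W, the heterochromatin variant, fell at 2 of its 3 loci. HTA6, which holds the octamer, had 215, 204 and 206 CPM in control and 141, 125 and 187 CPM in bleomycin in Col-0, and 229.7, 226 and 175 CPM in control and 182, 133 and 183 CPM in bleomycin in the triple mutant (log2 fold change -0.40, SE 0.12, adjusted p = 0.0255). Its triple mutant groups overlapped. HTA7 stood at 93.2, 102 and 109 CPM in Col-0 control and 73.3, 71.2 and 87.4 CPM in Col-0 bleomycin, and at 103, 99.4 and 107 CPM in triple mutant control and 79.1, 78.0 and 85.5 CPM in triple mutant bleomycin, with all bleomycin libraries below all controls (log2 fold change -0.37, SE 0.075, adjusted p = 0.00399). HTA12, at a much lower level, went from 6.92, 3.66 and 4.89 CPM in control to 8.04, 5.54 and 6.22 CPM with bleomycin in Col-0, and from 5.14, 4.89 and 1.53 CPM to 9.88, 7.89 and 4.97 CPM in the triple mutant. It was the tested histone locus with the largest fitted rise in the triple mutant (log2 fold change 0.98, SE 0.42, adjusted p = 0.166), its groups overlapped, and it was not called. HTA6 lost its call without Col-0 control 3 (adjusted p = 0.0509), Col-0 bleomycin 1 (0.0533), triple mutant control 1 (0.0569), triple mutant control 2 (0.0606) or triple mutant bleomycin 2 (0.0527). The divergent H2B locus AT1G08170 had 0 reads in all 12 libraries.

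**Figure D5:**
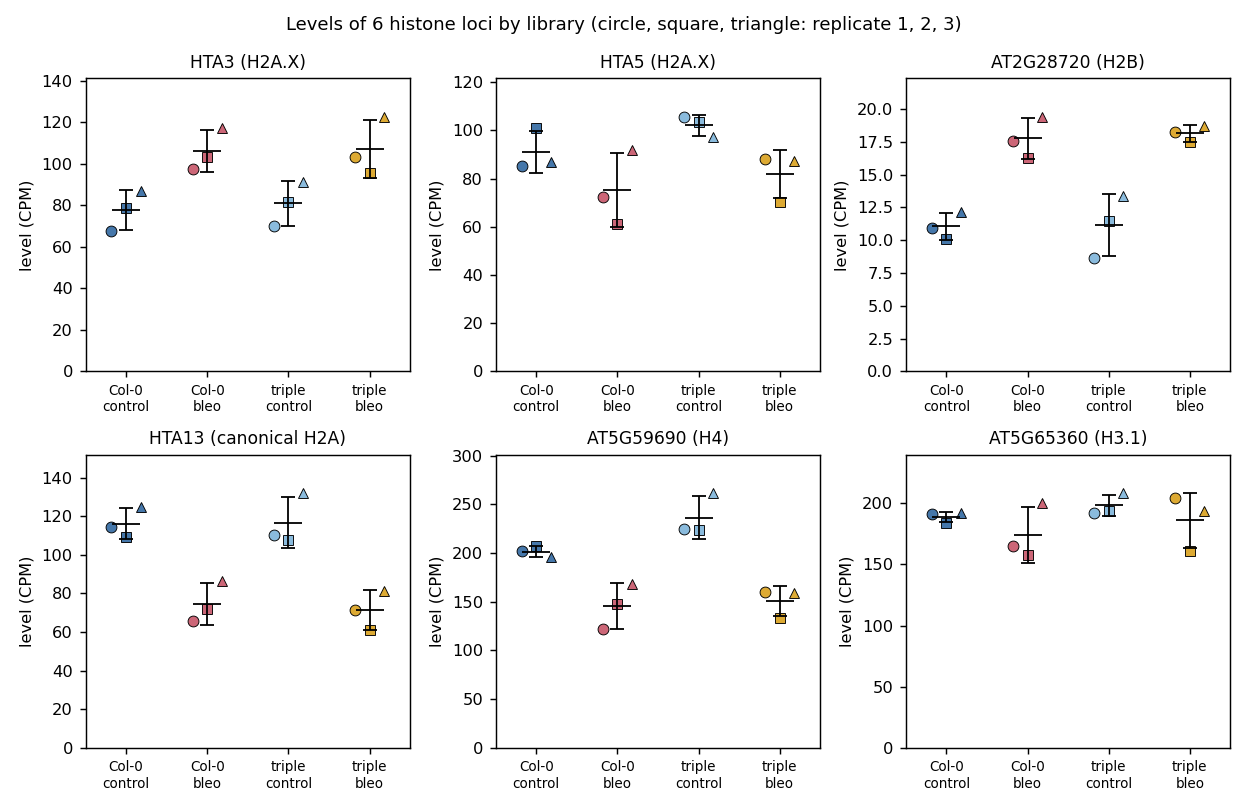
Levels (CPM) of 6 histone loci by library, with mean ± SD of the 3 libraries of a group. HTA3 and AT2G28720 are higher in all bleomycin libraries, HTA13 and AT5G59690 are lower in all of them, AT5G65360 overlaps in both genotypes, and HTA5 overlaps in Col-0.

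Between the genotypes no histone locus was called. In control medium 0 of 39 passed (of all genes 0.0278% were called, 0.00464% higher and 0.0232% lower), 2 had an unadjusted p under 0.05, and the median log2 difference of triple mutant to Col-0 was 0.06. Those 2 were AT5G10390 (log2 difference 0.44, SE 0.20, adjusted p = 0.96) and AT5G02570, which has no sequence window of its own. After bleomycin 0 of 39 passed (0.0278% of all genes, again 0.00464% higher and 0.0232% lower), 0 had an unadjusted p under 0.05, and the median was 0.07. With AT5G02570 set aside, the largest fitted differences after bleomycin were those of HTB1 (0.22, SE 0.15) upwards and AT3G09480 (-0.20, SE 0.37) downwards. In control they were those of AT5G10390 upwards and HTA12 (-0.42, SE 0.42) downwards. HTA12 shares sequence with AT5G02570 and was lowest in triple mutant control 3. In 7 loci all triple mutant controls lay above all Col-0 controls (4.68% of all genes), and in 0 they lay below (6.49%). After bleomycin the groups overlapped at every tested locus (2.39% of all genes lay higher and 2.71% lower without overlap). DESeq2 and limma voom likewise called 0 histone loci in both comparisons. The log2 difference of the sum over all loci was 0.069 in CPM and -0.073 in TPM in control medium, and 0.070 and -0.034 after bleomycin.

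The interaction, which asks whether bleomycin changed a locus differently in the triple mutant, gave 0 called histone loci and 0 with an unadjusted p under 0.05 of 39 (0.0% of all genes were called). Its median over the histone loci was 0.01 on the log2 scale, and its smallest adjusted p was 1. For HTA3 the difference of the changes was -0.04 (95% interval -0.47 to 0.38) and for AT2G28720 it was 0.02 (-0.49 to 0.52). For HTA13 it was -0.07 (-0.50 to 0.35). The largest fitted difference upwards was that of HTA12 (0.62, SE 0.58), and the largest downwards that of AT5G02570, without firm counts. AT5G10390, called in the triple mutant and not in Col-0, had -0.51 (SE 0.29, unadjusted p = 0.0998 and adjusted p = 1 in edgeR). Intervals of this width leave room for differences of about the size of the bleomycin changes themselves. DESeq2 and limma voom also called 0 histone loci for the interaction.

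Histone chaperones hand histones to DNA. Of 26 chaperone and deposition genes, 5 fell and 0 rose in the average over both genotypes, against 11.1% of all genes called lower, with a median log2 fold change of -0.18 beside 0.02 for all genes. NRP1, a chaperone of the NAP1 family, went from 140.3, 162 and 148 CPM in control to 84.7, 90.5 and 121 CPM with bleomycin in Col-0, and from 150.1, 165 and 155 CPM to 94.5, 92.5 and 119 CPM in the triple mutant (log2 fold change -0.61, SE 0.10, adjusted p = 0.00122). NRP2, its paralogue, measured 81.4, 89.6 and 91.1 CPM in the Col-0 controls against 57.6, 65.6 and 79.0 CPM after bleomycin, and 88.8, 93.2 and 88.0 CPM in the triple mutant controls against 59.7, 62.6 and 71.4 CPM after bleomycin (log2 fold change -0.43, SE 0.086, adjusted p = 0.00397). ASF1B, which carries H3 and H4, stood at 31.5, 35.4 and 38.9 CPM in Col-0 control and 24.3, 25.2 and 30.3 CPM in Col-0 bleomycin, and at 39.3, 39.8 and 43.1 CPM in triple mutant control and 23.5, 28.1 and 26.0 CPM in triple mutant bleomycin (log2 fold change -0.53, SE 0.089, adjusted p = 0.00143). These 3 had all bleomycin libraries below all controls. NAP1;2 and SSRP1, the latter a subunit of the FACT complex, fell by less (log2 fold change -0.25 and -0.26, adjusted p = 0.0315 and 0.0241) and overlapped. ATXR5, a methyltransferase that acts on H3.1, fell (log2 fold change -0.46, adjusted p = 0.0236), and its relative ATXR6 was not called. Leaving out Col-0 bleomycin 1 or triple mutant bleomycin 1 ended the calls of NAP1;2 (adjusted p = 0.0683 and 0.0765), SSRP1 (0.0559 and 0.0576) and ATXR5 (0.0569 and 0.0533). NAP1;2 also failed without Col-0 control 2 or 3, triple mutant control 1 or 2 or triple mutant bleomycin 2 (0.0606 to 0.0835), SSRP1 without Col-0 control 3 (0.061) or triple mutant control 2 (0.0524), and ATXR5 without Col-0 control 2 (0.0719) or triple mutant control 1 (0.0545).

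Other H3 and linker histone loci were given beside the members. Of 5 other H3 loci 3 could be tested and 1 rose: AT1G75600, which was at 0 to 0.246 CPM in the controls and at 0.576 to 1.62 CPM after bleomycin (log2 fold change 3.04, SE 0.87, adjusted p = 0.0234). Its call was lost without both bleomycin libraries 3 (adjusted p = 0.0517), or without any one of Col-0 control 2, Col-0 bleomycin 1, triple mutant control 2 or triple mutant bleomycin 2 (adjusted p = 0.0554 to 0.0665). Of the 2 linker histone loci tested, 0 were called, with adjusted p from 0.264 to 0.81.

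Of 15 S phase genes 2 rose and 0 fell, a share near the 12.9% of all genes called higher, and the median log2 fold change was -0.05. Both were ribonucleotide reductase genes, which supply DNA precursors. TSO2 measured 58.7, 55.9 and 65.8 CPM in the Col-0 controls against 546, 454 and 433 CPM after bleomycin, and 64.3, 59.6 and 69.7 CPM in the triple mutant controls against 581, 458 and 421 CPM after bleomycin (log2 fold change 2.95, SE 0.10, adjusted p = 5.92e-09). RNR1 had 71.5, 62.5 and 72.9 CPM in control and 211, 178 and 167 CPM in bleomycin in Col-0, and 61.2, 66.8 and 55.0 CPM in control and 183, 161 and 156 CPM in bleomycin in the triple mutant (log2 fold change 1.44, SE 0.087, adjusted p = 3.93e-07). Groups lay far apart for both. Of 12 mitosis genes 5 fell and 0 rose (11.1% of all genes were called lower), with a median of -0.42. HIK, a kinesin of cell plate formation, stood at 36.8, 37.1 and 33.7 CPM in Col-0 control and 17.3, 19.1 and 30.8 CPM in Col-0 bleomycin, and at 32.1, 37.3 and 35.0 CPM in triple mutant control and 25.4, 19.5 and 30.9 CPM in triple mutant bleomycin (log2 fold change -0.57, SE 0.15, adjusted p = 0.0142). The B-type cyclin CYCB1;2 went from 47.7, 41.9 and 52.3 CPM in control to 21.9, 19.8 and 41.3 CPM with bleomycin in Col-0, and from 47.0, 40.1 and 41.3 CPM to 29.9, 14.4 and 40.1 CPM in the triple mutant (log2 fold change -0.69, SE 0.23, adjusted p = 0.0422). AUR1, AUR2 and POK1 also fell (log2 fold change -0.42, -0.33 and -0.41, adjusted p = 0.0256, 0.0437 and 0.0287). HIK was called in all 21 alternatives. Without Col-0 control 2 none of the other 4 passed (adjusted p = 0.0601 for CYCB1;2, 0.0653 for AUR1, 0.0659 for AUR2 and 0.0666 for POK1), nor did any without Col-0 bleomycin 1, triple mutant control 2 or triple mutant bleomycin 1 (0.0505 to 0.0964). Triple mutant control 1 was needed for all but AUR2, and Col-0 control 3, Col-0 bleomycin 2 and triple mutant bleomycin 2 for all but AUR1. Col-0 control 1 and triple mutant control 3 were needed for CYCB1;2 and AUR2, and triple mutant bleomycin 3 for AUR2.

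Markers of other cell types were measured in the same libraries, and their calls stand beside 12.9% of all genes called higher and 11.1% lower. The summed level of the 12 mitosis genes was 368 to 388 CPM in Col-0 control and 239 to 351 CPM in Col-0 bleomycin, and 346 to 366 CPM in triple mutant control and 212 to 356 CPM in triple mutant bleomycin. Its highest bleomycin values were in the libraries numbered 3, as for the histone sums. Summed markers of the differentiating xylem were at 53.7 to 124 CPM in Col-0 control and 99.1 to 217 CPM in Col-0 bleomycin, and at 56.9 to 78.8 CPM and 101 to 177 CPM in the triple mutant, with 2 of 5 called higher. Endodermis markers were at 156 to 386 CPM and 278 to 526 CPM in Col-0, and at 194 to 330.2 CPM and 329.7 to 539 CPM in the triple mutant, with 3 of 5 called higher. Root hair markers were at 192 to 276 CPM and 307 to 344 CPM in Col-0, and at 187 to 345 CPM and 252 to 367 CPM in the triple mutant, with 1 of 5 called higher. Meristem and stem cell niche markers were at 171 to 208 CPM and 167 to 174 CPM in Col-0, and at 154 to 186 CPM and 123 to 150.0 CPM in the triple mutant, with 1 of 5 higher and 1 lower. Root cap markers were at 61.6 to 81.9 CPM in the controls and 67.9 to 91.8 CPM after bleomycin, with 1 of 4 higher and 1 lower. Photosynthesis markers were at 13.5 to 40.8 CPM over all libraries, with 0 of 5 called. Without Col-0 control 2 the calls of CASP2 (adjusted p = 0.0756), XCP2 (0.0988), EXP18 (0.0524), PLT3 (0.0536) and FEZ (0.0738) were lost, and without triple mutant bleomycin 2 that of WOX5 (0.0517). No marker was at 0 in all libraries. The part of these shifts in the histone changes was not tested.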

How the data were processed

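The deposited tables hold, per the file headers, estimated counts per transcript, TPM and transcript length, 1 table for each of the 12 libraries. Salmon 0.9.1 and CASAVA are named in the submitters' processing notes, and the sources used here do not give the genome build or annotation behind the tables. The deposited estimated counts were summed per locus and rounded, and 30576 transposable element transcripts (0.0666% to 0.0915% of reads) were left out. TPM was the authors' own and was summed per locus, without TMM scaling. Salmon splits reads among near-identical copies, so single loci of a family are less certain than their sum.

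All 12 libraries entered 1 edgeR 4.0.16 fit in R 4.3.3 (TMM scaling, filterByExpr, quasi-likelihood test), with Benjamini-Hochberg adjustment over the 21561 genes tested and a threshold of 0.05. DESeq2 1.42.0, limma 3.58.1 (voom), other scalings and filters, a replicate block and leaving out each library were alternatives. The scripts were run on simulated data with a fixed spread that was smaller than in these libraries. That run does not show how often true changes are found here. The labels call the samples biological replicates, and the p-values rest on the spread among these libraries only. Same-numbered libraries deviated together in Col-0 (correlations 0.538, 0.288 and 0.133) and in both genotype comparisons (0.284, 0.133 and 0.162 in control, 0.626, 0.3695 and 0.407 after bleomycin). The labels state no batch or pairing. The main fit therefore used the groups alone, and the replicate block was an alternative. If the numbers do pair the libraries, the p-values, SEs and intervals of the main fit ignore it. Log2 differences of sums and ratios compare group means of log2 values.

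The histone loci, the other gene lists and the comparisons were chosen with earlier results of these data known. Values in every library are given for each called locus, the highest locus per length of each class, CENH3, both H2A.X loci and the loci with the largest fitted rise or fall. Other loci are given by range, and at most 20 called genes of the other lists are named. Promoter stretches and 31-base windows came from the RefSeq annotation of TAIR10.1, matched by locus code, and 54 of 59 histone transcripts in the tables had the length of a RefSeq transcript.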

Additional observations from a re-analysis of the deposited data

How the results depend on the processing

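Of the 27 histone loci called in the average over both genotypes, 21 were called under all 21 alternatives, and the count itself ran from 21 to 32. Counts within a genotype moved more, and the cause was not tested. In Col-0, where 8 were called, DESeq2 called 16, the fit with the replicate block 22, the fit of the 2 groups alone 2, and the fit without both bleomycin libraries 3, an alternative chosen after seeing the data, 14. Of all genes, 925 were called higher and 530 lower in the main fit, 1698 and 1018 with DESeq2, and 2050 and 1387 with the block. The 2 groups alone gave 630 and 195, and the fit without both bleomycin libraries 3 gave 650 and 578. Leaving out 1 library gave 0 to 13. In the triple mutant, where 10 were called, DESeq2 called 17 and the replicate block 21, and leaving out 1 library gave 2 to 13. Of all genes, 905 were called higher and 822 lower there in the main fit, 1565 and 1306 with DESeq2, and 1939 and 1694 with the block. Same-numbered triple mutant libraries correlated by 0.321, 0.0528 and 0.106, and HTA3 had an adjusted p of 0.0084 with the block in that genotype. Counts of 0 between genotypes and for the interaction stayed at 0 under every alternative.

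TPM sums differ from CPM sums in that they weigh loci by length and also carry no TMM scaling between libraries. How much each of these moved the sums was not tested. With TPM sums, log2 differences after bleomycin became -0.018 in Col-0, -0.021 in the triple mutant and -0.019 averaged for H3.3, and -0.23, -0.051 and -0.14 for CENH3. They became 0.21 in the triple mutant and 0.22 averaged for H2A.X, and -0.11 and -0.12 for the variant loci. Between genotypes in control, all 12 sums were higher in the triple mutant in CPM and lower in TPM. They went from 0.098 to -0.042 for H3.3, 0.13 to -0.010 for H2A.Z, 0.089 to -0.052 for the variant loci, 0.083 to -0.049 for H4, 0.020 to -0.13 for canonical H2A, 0.12 to -0.028 for H2A.X and 0.069 to -0.073 for all loci. After bleomycin 10 of 12 changed sign, among them H3.3 (0.057 to -0.045), the variant loci (0.061 to -0.041) and all loci (0.070 to -0.034).

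Small differences that were never called changed sign. For HTA3 between genotypes, leaving out 1 library gave values from -0.033 to 0.15 in control (also -0.031) and from -0.093 to 0.090 after bleomycin (also -0.042 and -0.0052), and leaving out both bleomycin libraries 3 gave -0.017. For HTA5 after bleomycin it gave -0.0036 to 0.29. The interaction ran from -0.15 to 0.046 for HTA3 (also 0.044 and 0.029) and from -0.17 to 0.13 for HTA5 (also 0.0048 and 0.057), with 0.078 without both bleomycin libraries 3. For CENH3 it became -0.0037 with limma voom and ran from -0.11 to 0.18 without 1 library (also -0.047, -0.10, -0.066, -0.019 and -0.067). HTA4 and AT1G08170 had few or 0 reads and were not tested.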
